A study of Bos taurus with 6 samples.

Results

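The 10 genes described here encode the proteins that store iron, bring it into the cell, release it and recover it from heme, together with a sensor of iron. They are FTH1, FTL and NCOA4 for storage, TFRC, STEAP3 and SLC11A2 for uptake, SLC40A1 for export, IREB2 for iron sensing, and HMOX1 and HMOX2 for heme breakdown. Members were chosen by symbol, and each symbol stood on 1 of the 36075 rows of the gene table. RNA was measured in 6 libraries of bovine (Bos taurus) blastocysts, 3 from MT-treated and 3 from control cultures, where MT is melatonin. Cumulus-oocyte complexes from slaughterhouse ovaries were matured for 22 h with 1e-07 mol/L MT or without it, then fertilized and cultured to the blastocyst stage, so that MT was present only during oocyte maturation. Each library held a pool of 3 blastocysts, and the libraries of a group came from 3 in vitro production runs. The concentration, the times and the pools were taken from the methods of the study, since the labels name the treatment and number the replicates without further detail.

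Iron enters most cells bound to transferrin, whose receptor is TFRC, and is reduced by STEAP3 in the endosome before SLC11A2 (DMT1) carries it into the cytosol. Surplus iron is stored in ferritin, a shell of heavy (FTH1) and light (FTL) chains, from which NCOA4 recovers it by delivering ferritin to the lysosome, and SLC40A1 (ferroportin) is the exporter. When iron is scarce, the iron regulatory proteins, encoded by IREB2 and ACO1, bind hairpins in these mRNAs, stabilise TFRC mRNA and hold back translation of ferritin, a step that the level of an mRNA does not show. Heme oxygenases open the heme ring and set its iron free. HMOX1 is the stress-inducible form and HMOX2 the constitutive form.

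Values are TPM, a transcript abundance scaled to gene length and library size, so that levels can be compared between genes. TPM keeps no counts, so the depth behind a value is unknown. Differences are given as log2 fold changes of TPM + 1, MT-treated minus control, which understate the change of genes with low values, and were tested with limma across the 11953 genes that reached 1 TPM in 3 or more libraries. P-values carry Benjamini-Hochberg adjustment over all of these genes. They measure the spread between these libraries, which was narrow. Over the 2992 genes that reached 20 TPM in all 6 libraries, replicates had a median coefficient of variation of 2.07% (control) and 2.56% (MT-treated), and an adjusted p-value under 0.05 was reached by 95.7% of the genes tested. Such a call therefore says little about a single gene, and sizes and levels carry the description. The groups differed throughout the transcriptome. Between 8854 and 8953 genes were above 0 in a control library and between 14372 and 14408 in an MT-treated library, and the control libraries all stood at 0 for 4037 tested genes. A listed 0 is not taken as absence of a transcript, here or below. Over the genes that reached 1 TPM in every library, the median log2 level of the MT-treated libraries lay 0.48 below that of the control libraries. On the log2 scale, libraries of a group correlated across the tested genes at Pearson's r of at least 0.991, and libraries of different groups at 0.544 to 0.546. By the methods of the study, oocytes of a production run were split at random between the groups and treated side by side, and the same sequencer and pipeline are named for all libraries. Whether libraries of both groups were prepared and sequenced together is not given in the sources used here, so that MT treatment and a difference between groups arising at those steps cannot be told apart in what follows.

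Markers of the blastocyst were present, although not all of them in both groups. Trophectoderm markers summed to between 11560 and 11901 TPM in control and between 10631 and 10987 TPM in MT-treated libraries, nearly all of it KRT8 and KRT18. KRT8 fell from 8695 to 6905 TPM and KRT18 rose from 2766 to 3654 TPM (group means). Of the 10 trophectoderm markers tested, 7 were higher and 3 lower by limma, beside 61.6% and 34.1% of all tested genes. CDX2 of the trophectoderm and NANOG of the inner cell mass were listed at 0 in every control library, whereas TFAP2A of the trophectoderm had 31.5 to 38.9 TPM in control and 0.46 to 0.55 TPM in MT-treated libraries, and POU5F1 lay between 188 and 194 TPM in all 6 libraries. Inner cell mass markers summed to between 275 and 279 TPM in control and between 344 and 347 TPM in MT-treated libraries. In that list KLF4 went from 18.1 to 83.8 TPM, whereas SALL4 went the other way, from 56.8 to 26.6 TPM (group means). Hypoblast markers summed to between 204 and 208 TPM in control and between 526 and 530 TPM in MT-treated libraries. Nearly all of this in control and most of it under MT came from FN1, which many cell types express. Of 8 red blood cell markers in the table, 2 were above 0 in control and 3 in MT-treated libraries, with sums of 32.8 to 35.1 TPM and 161 to 180 TPM, most of it HBA, while SLC4A1 and HBM were at 0 in all libraries. All 5 macrophage markers in the table were at 0 in all libraries. Of 9 cumulus and granulosa cell markers, FSHR alone passed 1 TPM, and of 10 oocyte markers DPPA3 alone did. Group means in control and under MT were 18.2 and 16.0 TPM for FSHR and 196 and 108 TPM for DPPA3. In a pool of whole blastocysts, fewer cells of a type and less RNA per cell cannot be told apart.

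Transcripts of most of these iron genes were scarcer after MT treatment, and SLC11A2 went the other way by a wide margin. Of the 10 genes, 8 were lower, 1 was higher and 1, STEAP3, did not pass the test (adjusted p-value under 0.05 by limma), where 34.1% of all tested genes were lower and 61.6% higher. All 10 genes were above 0 in all 6 libraries, and among the 6925 tested genes of that kind fitted alone 52.4% were lower and 40.6% higher. The median log2 fold change was -1.08 over the 10 genes and 1.12 over all tested genes, or -0.19 over the tested genes above 0 in all libraries. All 10 passed the filter on low values, SLC11A2 only through its MT-treated libraries, so that its difference follows in part from the filter. IREB2 needed its control libraries to pass, as its MT-treated values were 1.14, 1.22 and 0.88 TPM, and the same limit holds for its difference. The groups did not overlap for 9 of the 10 genes, as for 96.1% of all tested genes. When a 2-fold change of TPM + 1 was also required, 5 of the 10 were lower and 1 was higher, beside 19.6% and 51.0% of the tested genes. SLC40A1 missed this cut with a log2 fold change of -0.91, although its mean TPM was 54.4% lower.

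**Figure D1:**
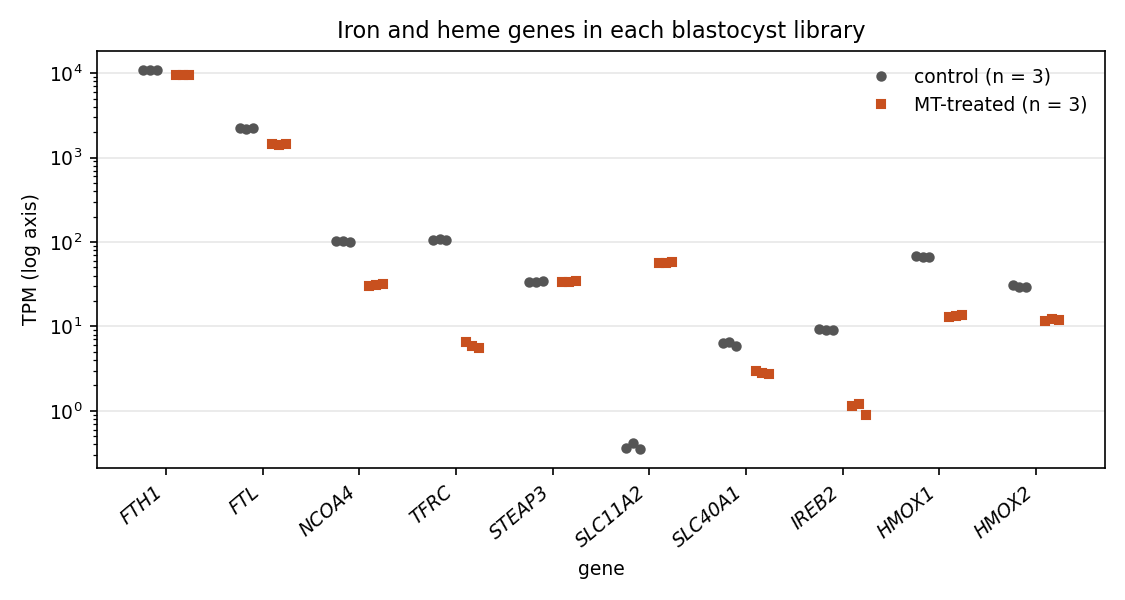
TPM of each iron and heme gene in each library, on a log axis, with circles for the 3 control and squares for the 3 MT-treated libraries. Replicates lie close together, FTH1 and FTL stand far above the other 8 genes in both groups, TFRC drops from about 106 to 5.98 TPM and SLC11A2 rises from 0.377 to 57.3 TPM (group means).

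FTH1 (ENSBTAG00000011184), the ferritin heavy chain, was among the most abundant transcripts of the embryo. Its TPM was 10968, 10789 and 10920 in control replicates 1 to 3 and 9575, 9437 and 9615 under MT. Every MT-treated value lay below every control value, but only by 12.4% on the group means, a smaller step than for most genes. By mean TPM it ranked 3 of all genes in control and 5 in MT-treated blastocysts, and it made up 1.152% to 1.17% of the listed TPM of a control library and 1.03% to 1.05% of an MT-treated library. The log2 fold change was -0.19 (SE, the standard error, 0.0097, adjusted p = 2.35e-06 by limma), smaller in size than that of all but 6.68% of the tested genes. After each library was centred on the median of the genes that reached 1 TPM throughout, the direction turned, to a log2 fold change of 0.29 (adjusted p = 1.24e-07 by limma, the range over all alternatives being 1.24e-07 to 0.00107), so that the level of FTH1 fell as a share of all transcripts but not relative to the middle of the distribution. Ferritin genes have near-identical processed copies in mammalian genomes, and how reads that match several places were counted is not stated, so the levels of FTH1 and FTL carry that uncertainty.

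FTL (ENSBTAG00000013343), the ferritin light chain, fell further than its partner. Its TPM was 2215, 2193 and 2222 in control replicates 1 to 3 and 1431, 1396 and 1447 under MT. The groups were well apart, with a coefficient of variation between replicates of at most 1.83% in either group. The mean was 35.5% lower in MT-treated blastocysts, with a log2 fold change of -0.63 (SE 0.02, adjusted p = 5.11e-08 by limma), and -0.15 after median centring. In the rank of all genes by mean TPM, FTL went from 55 to 103.

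Since both ferritin chains were read from the same libraries, their ratio is not changed by a factor common to a library. The ratio of FTL to FTH1 TPM was 0.202, 0.203 and 0.204 in control replicates 1 to 3 and 0.1495, 0.148 and 0.1505 under MT. The 3 ratios of each group lay close together and the groups did not overlap. The mean ratio went from 0.203 ± 0.00084 to 0.149 ± 0.0013 (SD, n = 3 each; exact permutation test, two-sided, p = 0.1, the lowest value possible with 3 libraries a group). Transcripts of the light chain were thus scarcer relative to those of the heavy chain in MT-treated blastocysts, with a ratio lower in all 3 libraries.

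NCOA4 (ENSBTAG00000019565), the cargo receptor that takes ferritin to the lysosome, had 104, 103.65 and 100.1 TPM in control replicates 1 to 3 and 30.5, 31.2 and 31.9 TPM under MT. The MT-treated libraries held less than any control library, and the ferritin receptor thus fell by more than ferritin itself on the log2 scale. Its log2 fold change was -1.69 (SE 0.03, adjusted p = 9.73e-09 by limma), with a mean 69.6% lower. HERC2, which encodes a ubiquitin ligase that binds NCOA4 and marks it for degradation, had 1.08, 1.17 and 1.13 TPM in control replicates 1 to 3 and 58.8, 63.3 and 63.8 TPM under MT, a log2 fold change of 4.89 (adjusted p = 9.11e-10 by limma).

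TFRC (ENSBTAG00000032719), the transferrin receptor, fell the most of the 10 genes. Its TPM was 105, 107 and 106 in control replicates 1 to 3 and 6.51, 5.83 and 5.60 under MT. Control libraries held 17.7 times the MT-treated mean, and no values overlapped. The log2 fold change of -3.94 (SE 0.05, adjusted p = 3.63e-09 by limma) exceeded in size that of 81.7% of the tested genes. In control blastocysts TFRC stood above 84.0% to 84.2% of the detected genes, and in MT-treated blastocysts above 37.2% to 39.8%. Since more genes were detected under MT, such shares are not on 1 scale between the groups. STEAP3, at nearly equal TPM, stood above 59.3% to 59.7% in control and 77.2% to 78.1% under MT. The second transferrin receptor, TFR2, which serves iron sensing in liver and red cell precursors, was listed at 0 in each control library, while the MT-treated replicates had 10.5, 10.04 and 20.5 TPM. Transferrin itself (TF) was at 0 in all 6 libraries.

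STEAP3 (ENSBTAG00000007111), the endosomal ferrireductase that works beside TFRC, had nearly the same level in both groups. Its TPM was 33.3, 33.4 and 34.6 in control replicates 1 to 3 and 33.5, 33.1 and 34.3 under MT. The ranges of the 2 groups overlapped almost entirely. The log2 fold change was -0.0035 with a 95% interval from -0.07 to 0.07 (adjusted p = 0.906 by limma), so that a change of more than about that size in either direction lay outside the interval on this scale. After median centring it was 0.48 (adjusted p = 3.35e-06) and after quantile normalization 0.22 (adjusted p = 0.000486), both by limma (range over all alternatives 3.35e-06 to 0.982), which places STEAP3 among the higher genes once the libraries are set to a common middle or distribution.

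SLC11A2 (ENSBTAG00000032914), the ferrous iron transporter of the endosome and of the gut, was the single gene of the 10 that rose. It had 0.36, 0.42 and 0.35 TPM in control replicates 1 to 3 and 56.7, 56.8 and 58.5 TPM under MT. In control blastocysts it stood above only 18.2% to 19.5% of the detected genes, and in MT-treated blastocysts above 85.9% to 86.1%, with the same limit on comparing these shares as for TFRC. Its log2 fold change of 5.41 (SE 0.04, adjusted p = 5.70e-10 by limma) exceeded in size that of 96.3% of the tested genes. Since SLC11A2 passed the filter on low values only through its MT-treated libraries, the size and the p-value follow in part from the filter. With a pseudocount of 0.1 in place of 1 it was 6.92. Since the control values are low and their depth is unknown, the ratio of the means, 152, is uncertain. The step followed the general pattern of these libraries, in which many genes at or near 0 in control were present in MT-treated blastocysts, and whether the pattern and the rise of SLC11A2 have a common source was not tested. The receptor and the transporter, which act in sequence on the same iron, thus moved in opposite directions, and the level of SLC11A2 went from rank 10 to rank 3 of the 10 genes.

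SLC40A1 (ENSBTAG00000010498), ferroportin, the known exporter of iron in vertebrates, was low in both groups. Its TPM was 6.37, 6.56 and 5.88 in control replicates 1 to 3 and 2.97, 2.84 and 2.76 under MT. All MT-treated values lay below the control values, and the mean was 54.4% lower. Its log2 fold change was -0.91 (SE 0.05, adjusted p = 2.98e-06 by limma). HAMP, which encodes hepcidin, the hormone that removes ferroportin from the cell surface, did not reach the level required for testing, with 0, 0.78 and 0.74 TPM under MT and 0 in each control library.

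IREB2 (ENSBTAG00000002504), iron regulatory protein 2, had 9.39, 9.09 and 8.94 TPM in control replicates 1 to 3 and 1.14, 1.22 and 0.88 TPM under MT. The control libraries held 8.46 times the MT-treated mean without overlap. This was a log2 fold change of -2.29 (SE 0.07, adjusted p = 1.61e-07 by limma), and IREB2 was the lowest of the 10 genes in MT-treated blastocysts. ACO1, iron regulatory protein 1, which doubles as the cytosolic aconitase, fell from 6.13 ± 0.107 to 1.98 ± 0.172 TPM (SD, n = 3 each; log2 fold change -1.26, adjusted p = 7.13e-07 by limma), with -0.78 after median centring and -2.66 after quantile normalization. Transcripts of both iron regulatory proteins were therefore lower in MT-treated blastocysts.

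IRP2 is removed from iron-replete cells by a ubiquitin ligase made of FBXL5, SKP1, CUL1 and RBX1, in which FBXL5 senses iron. FBXL5 was listed at 0 in each control library, while the MT-treated replicates had 9.02, 8.97 and 8.40 TPM. CUL1 rose from 11.95 ± 0.254 to 22.4 ± 0.503 TPM (SD, n = 3 each). SKP1 and RBX1, which are shared by many ligases of this type, were abundant and slightly lower, at 1387 ± 1.62 against 1276 ± 17.0 TPM for SKP1 and 422 ± 0.839 against 324 ± 9.54 TPM for RBX1 (SD, n = 3 each). The log2 fold changes of CUL1, SKP1 and RBX1 were 0.85, -0.12 and -0.38, with adjusted p-values of 4.71e-07, 7.15e-05 and 5.49e-06 by limma. After median centring SKP1 and RBX1 turned to log2 fold changes of 0.36 and 0.095, and after quantile normalization they were -0.067 and -0.24.

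HMOX1 (ENSBTAG00000015582), the inducible heme oxygenase, had 67.9, 67.2 and 66.3 TPM in control replicates 1 to 3 and 12.8, 13.4 and 13.5 TPM under MT. Control blastocysts held 5.07 times the MT-treated mean, and the groups did not overlap. The log2 fold change was -2.26 (SE 0.03, adjusted p = 3.96e-09 by limma). HMOX2 (ENSBTAG00000018937), the constitutive form, also fell, from 30.95, 29.4 and 29.2 TPM to 11.5, 12.2 and 12.05 TPM. Its values were likewise apart, with a log2 fold change of -1.26 (SE 0.04, adjusted p = 1.48e-07 by limma).

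The smaller fall of HMOX2 brought the levels of the heme oxygenases closer to each other. The ratio of HMOX2 to HMOX1 TPM was 0.456, 0.438 and 0.4403 in control replicates 1 to 3 and 0.901, 0.9097 and 0.88996 under MT. It was higher in all 3 MT-treated libraries, with a mean of 0.444 ± 0.0097 in control and 0.9004 ± 0.0099 in MT-treated blastocysts (SD, n = 3 each; exact permutation test, two-sided, p = 0.1, the smallest possible). HMOX1 remained the more abundant form in all 6 libraries.

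**Figure D2:**
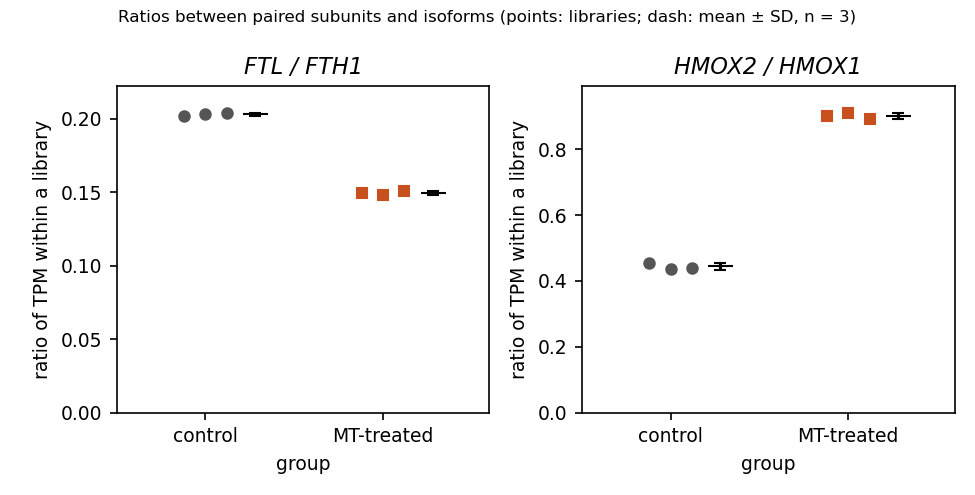
Ratio of FTL to FTH1 TPM (left) and of HMOX2 to HMOX1 TPM (right) within each library, on axes that start at 0, with points for libraries and dashes for the mean ± SD of 3 libraries. The ferritin ratio is lower in MT-treated libraries (0.149 against 0.203) and the heme oxygenase ratio higher (0.9004 against 0.444).

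The order of the 10 genes by level changed between the groups. In control blastocysts it ran FTH1, FTL, TFRC, NCOA4, HMOX1, STEAP3, HMOX2, IREB2, SLC40A1 and SLC11A2. In MT-treated blastocysts it ran FTH1, FTL, SLC11A2, STEAP3, NCOA4, HMOX1, HMOX2, TFRC, SLC40A1 and IREB2. No neighbours in either order had overlapping ranges, the closest in control being TFRC and NCOA4 with means of 106 ± 0.9403 and 103 ± 2.19 TPM (SD, n = 3 each). Replicates varied least for FTL in control (coefficient of variation 0.697%) and most for IREB2 in MT-treated blastocysts (16.5%), the latter at a mean of only 1.08 TPM. Together the 10 genes made up 1.42% to 1.44% of the listed TPM of a control library and 1.204% to 1.23% of an MT-treated library, of which FTH1 was the greater part.

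How far these differences depend on the scaling of the libraries was examined by centring each library on its median and by quantile normalization, which gives all libraries the same distribution. TFRC, NCOA4, IREB2, HMOX1, HMOX2, SLC40A1 and FTL were lower and SLC11A2 was higher under both. The log2 fold change of TFRC was -3.46 after centring and -5.20 after quantile normalization, and that of SLC11A2 was 5.88 and 3.98. Of the 10 genes SLC40A1 differed most between both scalings, with -0.43 and -2.49, and HMOX2 had -0.78 and -2.52. Centring gave 3 higher and 7 lower of the 10 genes (70.4% and 25.4% of all tested genes), and quantile normalization 2 higher and 8 lower (46.4% and 44.4%).

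**Figure D3:**
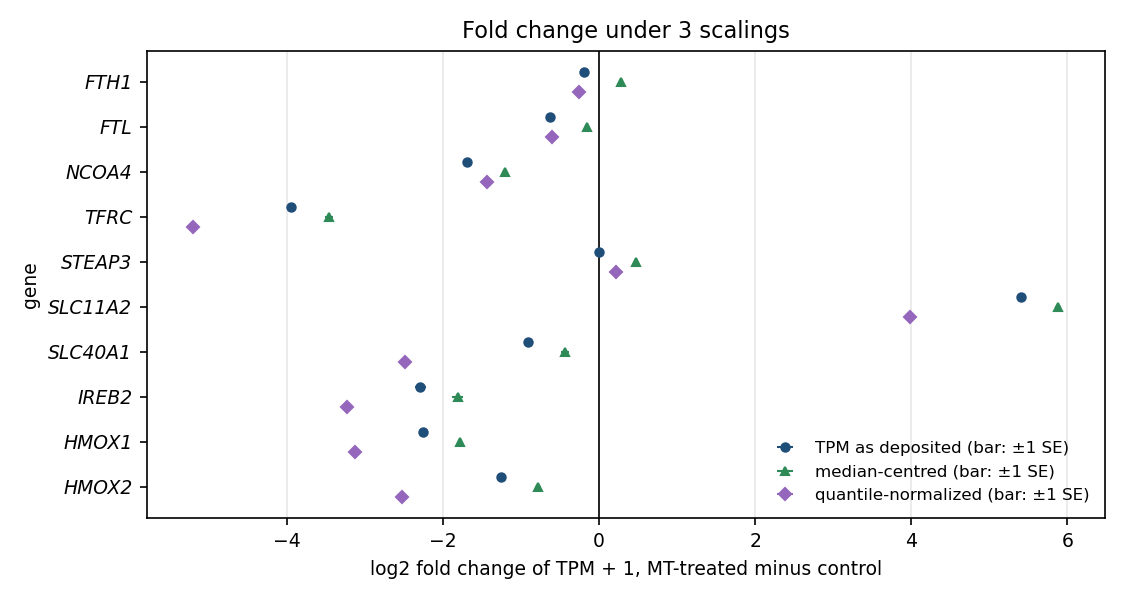
Log2 fold change of TPM + 1 (MT-treated minus control) of each gene with TPM as deposited, after median centring and after quantile normalization, with bars of 1 SE that are mostly smaller than the symbols. FTH1 moves from -0.19 to 0.29 after centring and STEAP3 from -0.0035 to 0.48, while the other 8 genes keep their side of 0.

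HMOX1, FTH1, FTL and SLC40A1 are known targets of NRF2, the transcription factor of the oxidative stress response encoded by NFE2L2. NFE2L2 fell from 48.95 ± 1.25 to 23.4 ± 0.310 TPM (SD, n = 3 each; log2 fold change -1.03, adjusted p = 1.04e-07 by limma), and its inhibitor KEAP1 from 28.2 ± 0.182 to 22.1 ± 1.049 TPM, a log2 fold change of -0.34 (adjusted p = 0.000189 by limma). After median centring NFE2L2 was still lower, at -0.55, whereas KEAP1 turned to 0.14. After quantile normalization both were lower, at -0.897 and -0.34. BACH1, the heme-sensing repressor of HMOX1, was listed at 0 in all 6 libraries.

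Beyond these 10 genes, 5 lists of iron and heme genes were examined, of which 61 of 78 genes reached the level required for testing. Of these, 32 were higher, 25 lower and 4 did not pass the test (limma), beside 61.6% higher and 34.1% lower among all tested genes. Centring on the median made this 43 against 15, and quantile normalization 34 against 24. In 16 of the 61 genes all control libraries were at 0 and in 1, SLC39A8, a zinc and iron importer, all MT-treated libraries. Over the 39 genes above 0 in all libraries, 11 were higher and 24 lower, with a median log2 fold change of -0.29 beside -0.19 over all such genes tested. Where the 16 genes are included, medians depend on the pseudocount.

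Among 9 tested genes of iron uptake and release, 5 were higher, 3 lower and 1 did not pass the test, and 4 of the 5 higher genes were at 0 in all control libraries. SNX3, a sorting nexin that returns TFRC from endosomes to the cell surface, fell from 523 ± 6.64 to 360 ± 7.204 TPM (SD, n = 3 each; log2 fold change -0.54, adjusted p = 3.87e-07 by limma). MCOLN1, a channel that lets iron out of lysosomes, fell from 35.7 ± 0.422 to 25.3 ± 0.621 TPM (SD, n = 3 each; log2 fold change -0.48, adjusted p = 4.63e-06 by limma). After median centring little of either fall was left, with log2 fold changes of -0.058 for SNX3 and -0.0055 for MCOLN1, and MCOLN1 no longer passed the test (adjusted p = 0.849 by limma). After quantile normalization both were still lower, at -0.39 and -0.34. SLC39A14, an importer of iron not bound to transferrin, had 13.8, 13.6 and 14.01 TPM in control replicates 1 to 3 and 8.78, 23.3 and 20.35 TPM under MT, which lay on both sides of the control values (adjusted p = 0.556 by limma). STEAP1, STEAP2 and CYBRD1, the other ferrireductases listed, were at 0 in all libraries, whereas STEAP4 was at 0 in each control library, and its MT-treated replicates had 14.3, 12.5 and 13.99 TPM.

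Of 12 tested genes of cytosolic iron handling and its control, 5 were higher, 5 lower and 2 did not pass the test. Among these 2 was PCBP2, an iron chaperone that serves ferritin, with 214 ± 1.93 TPM in control and 209 ± 4.02 TPM in MT-treated blastocysts (SD, n = 3 each; adjusted p = 0.126 by limma), and log2 fold changes of 0.44 after median centring and 0.16 after quantile normalization, both past the test. Its relative PCBP1 had 29.7, 28.4 and 29.25 TPM in control replicates 1 to 3 and 107, 107 and 110 TPM under MT (log2 fold change 1.86, adjusted p = 4.54e-09 by limma). FTMT, the mitochondrial ferritin, was at 0 in all libraries.

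In the list of heme synthesis, 5 of 7 tested genes were higher and 2 lower. The 3 most abundant of them were ALAS1, the first enzyme of the pathway in most cells, ALAD, which catalyses an early step, and UROD, a later one. ALAD fell from 257 ± 4.10 to 78.8 ± 4.14 TPM (log2 fold change -1.69, adjusted p = 4.75e-08 by limma) and ALAS1 by little, from 58.6 ± 0.709 to 52.2 ± 1.24 TPM (log2 fold change -0.17, adjusted p = 0.000888 by limma), both as SD with n = 3 each. ALAS1 turned to 0.31 after median centring and to 0.15 after quantile normalization. UROD rose from 123 ± 6.05 to 173 ± 6.64 TPM (SD, n = 3 each; log2 fold change 0.49, adjusted p = 5.26e-05 by limma). The last 3 enzymes, CPOX, PPOX and FECH, were listed at 0 in every control library, with means of 10.6, 48.6 and 12.9 TPM in MT-treated blastocysts, and UROS was at 0 in all 6 libraries. ALAS2, the red cell form of the first enzyme, had 0, 0 and 0.02 TPM in control replicates 1 to 3 and 10.8, 10.31 and 9.65 TPM under MT, beside the higher HBA noted above, whose part in the values of heme and iron genes was not tested. Since every nucleated cell that respires makes heme, a listed 0 for these enzymes is not taken as absence.

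Downstream of the heme oxygenases, BLVRA and BLVRB reduce biliverdin to bilirubin, and POR supplies the electrons that heme oxygenases use. BLVRA fell from 272 ± 4.96 to 97.1 ± 1.65 TPM (SD, n = 3 each; log2 fold change -1.48, adjusted p = 5.93e-09 by limma) and POR from 47.7 ± 2.11 to 15.3 ± 1.32 TPM (SD, n = 3 each; log2 fold change -1.58, adjusted p = 1.04e-06 by limma). BLVRB had 66.6, 70.4 and 69.45 TPM in control replicates 1 to 3 and 75.65, 71.0 and 74.9 TPM under MT, a log2 fold change of 0.10 (adjusted p = 0.02996 by limma), which became 0.58 after median centring and 0.39 after quantile normalization. HMOX1, HMOX2, POR and BLVRA were lower by 60.1% to 80.3% of their control means, and BLVRB was slightly higher with TPM as deposited. PGRMC2, a heme chaperone, fell from 81.0 ± 3.23 to 40.6 ± 0.772 TPM (SD, n = 3 each; log2 fold change -0.98, adjusted p = 3.90e-07 by limma). Its relative PGRMC1 went the other way, from 25.2 ± 1.37 to 80.9 ± 2.42 TPM (SD, n = 3 each), with a log2 fold change of 1.64 (adjusted p = 1.10e-07 by limma). Of 13 tested genes of heme transport and breakdown, 6 were higher, 3 of them at 0 in all control libraries, and 7 were lower.

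**Figure D4:**
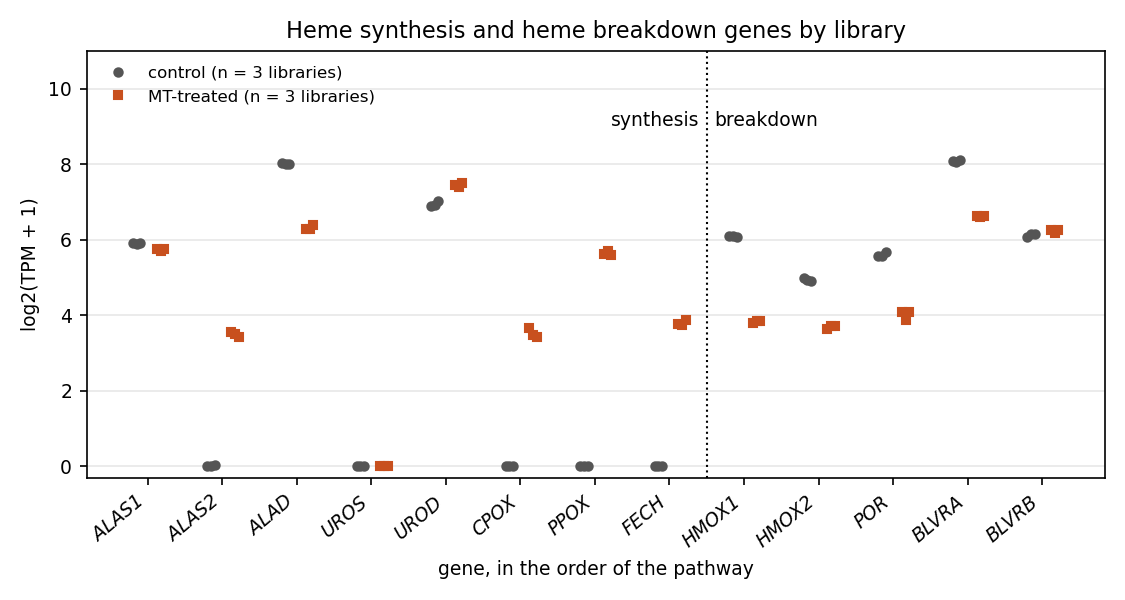
Log2(TPM + 1) of heme synthesis genes (left of the dotted line) and of heme breakdown genes (right) in each library, with circles for the 3 control and squares for the 3 MT-treated libraries. CPOX, PPOX and FECH sit at 0 in control and above 3 in MT-treated libraries, and HMOX1, HMOX2, POR and BLVRA are lower in all MT-treated libraries.

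Of 20 tested genes of mitochondrial iron and iron-sulfur clusters, 11 were higher, 8 lower and 1 did not pass the test. Iron-sulfur clusters are built on the scaffold ISCU by the cysteine desulfurase NFS1 with its partner LYRM4. ISCU fell from 274 ± 2.53 to 93.5 ± 2.49 TPM (SD, n = 3 each; log2 fold change -1.54, adjusted p = 6.77e-09 by limma). Each control library had NFS1 and LYRM4 at 0, whereas their means were 30.5 and 59.0 TPM in MT-treated blastocysts. As with the heme enzymes, these listed 0 values are not taken as absence. NFU1, which had the highest mean of the list over all 6 libraries and passes clusters on to target proteins, rose from 257 ± 3.78 to 414 ± 7.79 TPM (log2 fold change 0.69, adjusted p = 1.32e-07 by limma), and CIAO2B of the cytosolic assembly machinery fell from 335 ± 4.28 to 237 ± 3.96 TPM (log2 fold change -0.496, adjusted p = 4.78e-07 by limma), both as SD with n = 3 each. After median centring the log2 fold change of CIAO2B was -0.016 and did not pass the test (adjusted p = 0.457 by limma), whereas after quantile normalization it was still lower, at -0.32 (adjusted p = 3.79e-06 by limma).

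**Figure D5:**
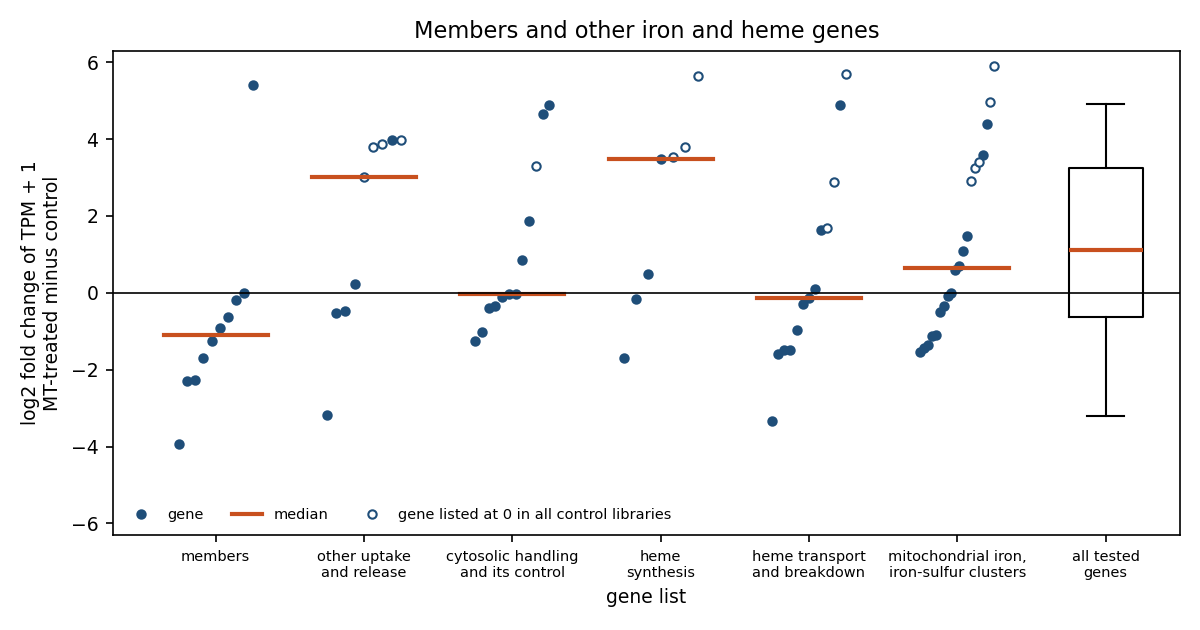
Log2 fold change of TPM + 1 of the 10 genes and of 5 further lists, 1 point a gene, with open points where every control value is 0 (whose size depends on the pseudocount) and lines at the medians. The box of all 11953 tested genes spans the quartiles with whiskers at the percentiles 5 and 95. The median of the 10 genes lies at -1.08 and that of all tested genes at 1.12.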

How the data were processed

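Per the labels and the methods of the study, the authors filtered reads with fastp and FastQC 0.11.9, aligned them with STAR 2.7.9a and counted them with featureCounts of Subread 1.6.3. The methods name the genome ARS-UCD1.3 and the processing notes ARS-UCD1.2, the methods name Smart-seq2 and the labels a TruSeq kit, and strand and multi-mapping settings are not given in the sources used here. The values that the authors deposited are TPM for each gene in each library, which hold no counts, so depth and counting error are unknown. How TPM were made is not stated.

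Members and lists were chosen with earlier results of these data known, and support nothing independently. Values were tested as log2(TPM + 1) with lmFit and eBayes with trend in limma 3.58.1 (R 4.3.3), 3 control against 3 MT-treated libraries, on genes reaching 1 TPM in 3 or more libraries, with Benjamini-Hochberg adjustment over all tested genes at 0.05. The fit was tested on simulated data. Ratios were compared with an exact permutation test (two-sided). Figures used Python 3.11.15 and matplotlib 3.10.9. In each list the 3 tested genes with the highest mean TPM were named, with ACO1, FBXL5, HERC2, BACH1, BLVRA, BLVRB, POR and TF. TFR2, HAMP, NFE2L2, KEAP1, CUL1, PCBP1, PGRMC1, FTMT, SLC39A8, the STEAP relatives and CYBRD1, CPOX, PPOX, FECH, UROS, ALAS2, NFS1 and LYRM4 were named after their values were seen. Some genes are not reported here and were taken out of the lists before counting. Alternatives were another pseudocount, other filters, 2 scalings, genes with a symbol, eBayes without trend, a replicate block, summed identifiers and each library left out. RefSeq gene models of ARS-UCD2.0 matched 10 of 10 members, of which FTL, NCOA4 and IREB2 overlap another gene there. TULP2, which overlaps FTL, was at 0 in all libraries. Since the builds differ, no coordinates are given.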

Additional observations from a re-analysis of the deposited data

How the results depend on the processing

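Each of the 10 fold changes was recomputed under 17 alternatives, and 164 of the 170 values kept their direction, with STEAP3, uncalled at first, accounting for 5 of the 6 reversals and FTH1 for 1. Changed filters, eBayes without trend, the replicate block and summed identifiers could not alter these fold changes, so their agreement was fixed in advance. FTH1 reversed to 0.29 after median centring. STEAP3 moved to 0.22 after quantile normalization, 0.48 after median centring and 0.033 with the listed TPM of each library rescaled to a common total (added after the data were seen), and lay between -0.017 and 0.014 with each library left out, where the sign turned without control replicate 3 or MT replicate 2. The count of higher members went from 1 to 2 after quantile normalization and to 3 after median centring. Among the other iron and heme genes, lower calls went from 25 to 15 after centring. With genes above 0 in all libraries only, chosen after the data were seen, calls there went from 57 to 35, and over all genes from 11438 to 6440. Higher calls went from 32 to 11 there and from 7367 to 2814 over all genes. Lower calls went from 25 to 24 and from 4071 to 3626. This restriction takes out 4037 tested genes at 0 in all control libraries, which can only be higher. It also takes out 360 at 0 in all MT-treated libraries, which can only be lower. The share of higher genes among all calls was 64.4%, and 51.1% after quantile normalization and 73.5% after centring. It was 43.7% with genes above 0 in all libraries only. Leaving out a library gave 9 called members of 10 each time, beside 11336 to 11380 of all 11953 tested genes, so that this count says little about the members. The ferritin difference lay between -0.054 and -0.053 and that of the heme oxygenase ratio between 0.451 and 0.461.

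Replicate numbers are not said to mark a shared production run. Deviations of same-numbered libraries correlated at -0.01, -0.00068 and 0.06 across genes, and 1 of 3 control libraries correlated best with its own number, so they were not treated as pairs. With a replicate block, 9 of 10 members, 56 of 61 other iron and heme genes and 11461 of all 11953 tested genes were called.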
